A study of Saccharomyces cerevisiae with 94 samples.

Results

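The mRNAs of 10 glycolytic enzyme genes of budding yeast were followed across the series: HXK2, PGI1, PFK1, PFK2, FBA1, TPI1, TDH3, PGK1, GPM1 and CDC19. They were chosen by gene name among the transcripts annotated as open reading frames, and all 10 were found, of 6433 such transcripts and 8698 transcripts in all. The enolase genes were left out, because ENO2 RNA served as a spike-in in part of the libraries. All values came from Nanopore direct RNA sequencing (DRS), in which the native pA-tailed mRNA is read, so that each read gives the gene and the length of its pA-tail in adenosines (A). Levels are counts per 1000000 reads without ENO2 (CPM), and they are shares of the pA-tailed RNA of a culture: fewer cells and less RNA per cell cannot be told apart. Where the pool of pA-tailed RNA shrinks, a share can rise while the amount falls.

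The series holds 94 samples, of which 46 libraries with a column of their own and 9 groups with 1 pooled column were used here. In the Mex67-AA chase, rapamycin was added at 25 °C to a W303 strain that carries tor1-1, fpr1Δ, RPL13 fused to FKBP12 and MEX67 fused to FRB, so that the mRNA export factor is drawn out of the nucleus; 17 libraries of replicates A, B and C span 0 to 30 min. In the heat stress chase, wild-type cells were brought to 37 °C from 25 °C with pre-heated medium, and 18 libraries of replicates A, B and D span 0 to 20 min. In the thiolutin chase, wild-type cells at 25 °C received an inhibitor of transcription that at low dose is also known to switch on stress genes, and the 8 libraries of replicate A span 0 to 60 min. The pooled columns hold Dcp2-AID cells, Xrn1-AID cells and their wild type, all 3 after 2 h of 1-NAA. They also hold Pab1-AID cells of the Mex67-AA background after 1 or 2 h of auxin beside a control without auxin. Strains without CCR4 or PAN2 stand beside the wild type labelled WT_30. The strain list gives the Xrn1-AID strain tor1-1, fpr1Δ and RPL13 fused to FKBP12 too, but not the Dcp2-AID strain or wild-type W303. Strain background and depletion of Xrn1 thus cannot be told apart. The control of the Pab1-AID cells has the genotype Pab1-AID in its labels but is titled as wild type. The samples without PAN2 have that genotype and title, but their descriptions name ccr4. Single libraries hold a strain without POP2, and wild-type RNA digested or not digested with Xrn1 in vitro. All cultures grew in a rich glucose medium. The labels give 25 °C for the degron, deletion and digestion samples, whereas the columns of the CCR4 and PAN2 deletions and of WT_30 are named for 30 °C. The appendix of the study gives 30 °C for these, for the POP2 deletion and for the digested and undigested RNA. The temperature of all these deletion, WT_30 and digestion samples is thus uncertain. The study describes the replicates of the chases as biological, and libraries of 1 replicate taken at different times enter a window together. Within a window n therefore counts libraries and not cultures. Libraries of 1 replicate enter the fits as separate values, with only the replicate as a block. The SE and p values thus do not measure how the change varies between cultures, and may overstate the replication.

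Glycolysis turns glucose into pyruvate, and in budding yeast growing on glucose its enzymes are among the most abundant proteins of the cell. Their mRNAs are driven by strong promoters with sites for the activators Rap1 and Gcr1. Several steps have a second gene whose product catalyses the same reaction. Some of these, such as HXK1 and GLK1 beside HXK2 and TDH1 beside TDH3, are expressed mainly when glucose is scarce or cells are stressed, whereas TDH2 is also expressed in growth on glucose. The pA-tail, bound by Pab1, is shortened in the cytoplasm by the deadenylases Ccr4-NOT and Pan2-Pan3, after which Dcp2 removes the cap and Xrn1 degrades the body.

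A pair of sequences bears on the values that follow, and both were read from the RefSeq annotation of the R64 build. One is the end of the coding region of TDH3 beside its paralogs, shown because reads of near-identical copies can be exchanged between them. DRS reads start at the pA-tail, so the 3' UTR is read before this stretch, and the UTRs of the copies were not compared here. Capitals mark the positions at which the 3 genes differ. TDH3 lies on chrVII:882812-882901 on the minus strand, TDH2 on chrX:453683-453772 on the minus strand and TDH1 on chrX:339180-339269 on the plus strand.
TDH3: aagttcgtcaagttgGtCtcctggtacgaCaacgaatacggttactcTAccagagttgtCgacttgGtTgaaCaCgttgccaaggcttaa
TDH2: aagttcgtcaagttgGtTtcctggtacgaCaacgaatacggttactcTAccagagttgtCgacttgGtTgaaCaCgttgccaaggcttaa
TDH1: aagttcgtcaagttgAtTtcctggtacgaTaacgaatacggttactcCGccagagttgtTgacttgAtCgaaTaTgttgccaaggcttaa
Over the whole coding region of 999 bases, TDH3 and TDH2 were identical at 95.8% of positions and differed at 42, and TDH3 and TDH1 at 88.9%, with 111 differences. How many reads of TDH3 and TDH2 were exchanged was not tested, and the values of TDH3 carry that uncertainty.

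The other stretch lies upstream of PGK1, at chrIII:137317-137456 on the plus strand, and is shown because PGK1 was the member called in heat stress by edgeR with TMM. Capitals mark a match to the 3-unit heat shock element (GAANNTTC followed by any 2 bases and GAA), to which the factor Hsf1 can bind, and the match begins 369 bases before the start codon.
PGK1: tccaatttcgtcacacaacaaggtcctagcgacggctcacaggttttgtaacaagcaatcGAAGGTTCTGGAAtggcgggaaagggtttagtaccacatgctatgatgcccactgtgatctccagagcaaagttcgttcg
Among the 500 bases before the start codon, searched on both strands, the 3-unit element was present in 89 of 6006 promoters (1.48%), and of the members in PGK1 alone. The shorter core GAANNTTC, which lies within it, was found in 4 of 10 members (PGI1, PFK2, PGK1 and GPM1), against 19.2% of all promoters. CTTCC, the core of the Gcr1 site, was found in 8 of 10 members, against 66.1% of all promoters, and a Rap1-type motif (CACCC, any 2 bases and ACA) in GPM1 only, against 2.21%. These matches describe letters in a window and not sites in use.

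Before any treatment, the members covered a wide range of levels, with the lower part of the pathway far above its entry. In the 3 heat stress libraries at 0 min, TDH3, glyceraldehyde-3-phosphate dehydrogenase, had 28795, 34247 and 36240 CPM, and it ranked 1 of 6432 transcripts of open reading frames. FBA1, fructose-bisphosphate aldolase, ranked 3 with 13477 ± 215 CPM, CDC19, pyruvate kinase, 9 with 8945 ± 308 CPM, and GPM1, phosphoglycerate mutase, was at 8191 ± 522 CPM (SD, n = 3 each). TPI1, triosephosphate isomerase, had 6722 ± 342 CPM and PGK1, phosphoglycerate kinase, 6113 ± 283 CPM. The enzymes of the first steps were lower: PGI1, phosphoglucose isomerase, had 1693 ± 84.5 CPM, HXK2, the main hexokinase in glucose, 1434 ± 136 CPM, and PFK2 and PFK1, the 2 subunits of phosphofructokinase, 649 ± 24.4 and 615 ± 80.0 CPM.

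Per kilobase of transcript, which allows levels of different genes to be compared, the order was TDH3 (27951 ± 3255 CPM per kb), FBA1 (10663 ± 170), GPM1 (8393 ± 535), TPI1 (7780 ± 396), CDC19 (5060 ± 174), PGK1 (4417 ± 204), PGI1 (893 ± 44.6), HXK2 (842 ± 79.7), PFK2 (197 ± 7.4) and PFK1 (178 ± 23.1). There were 3 pairs of neighbours that lay closer than the sum of their SDs, GPM1 with TPI1, PGI1 with HXK2 and PFK2 with PFK1. The interval that the tables give for FBA1 lacks 312 bases of its annotated coding region, so its level per kilobase is less certain. The step in the pathway at which levels jumped was the split of the 6-carbon sugar by FBA1: all enzymes from FBA1 on were above all enzymes before it. The 2 subunits of phosphofructokinase differed by less than their spread, also in the Mex67-AA strain, where PFK1 was at 536 ± 20.8 CPM and PFK2 at 455 ± 140 CPM.

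The members also shared a strong codon bias. Their effective number of codons, which is lower the fewer synonymous codons a gene uses, ran between 24.1 for TDH3, the lowest of all genes measured, and 34.8 for PFK1, against a median of 51.6 over 5687 genes. The marker genes named for the set, FBA1 and PGK1, were detected in every library. Of the markers of cells grown past glucose use, ADH2, ICL1, FBP1, PCK1, CTT1, HSP26, HSP12 and SPG4, none exceeded 11.6 CPM in the heat stress libraries at 0 min.

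Members with lower levels tended to have longer mean tails, with exceptions, and most neighbours in tail length were not resolved. PFK2, HXK2 and PFK1 had the longest mean pA-tails at 0 min of heat stress, 35.6 ± 2.14, 34.8 ± 0.047 and 33.3 ± 0.634 A, and FBA1 the shortest, 25.6 ± 0.653 A (SD, n = 3 each). TDH3 had 31.5 ± 0.327 A in spite of its level, and PGI1, TPI1, PGK1, CDC19 and GPM1 lay between 28.2 and 31.1 A. Except for HXK2 over PFK1, PFK1 over TDH3 and GPM1 over FBA1, neighbours in this order differed by less than the sum of their SDs. Across the 10 genes, Spearman's rho was -0.685 between CPM and mean tail and 0.539 between transcript length and mean tail; both describe 10 genes measured in the same libraries, and length and level run together among them.

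**Figure D1:**
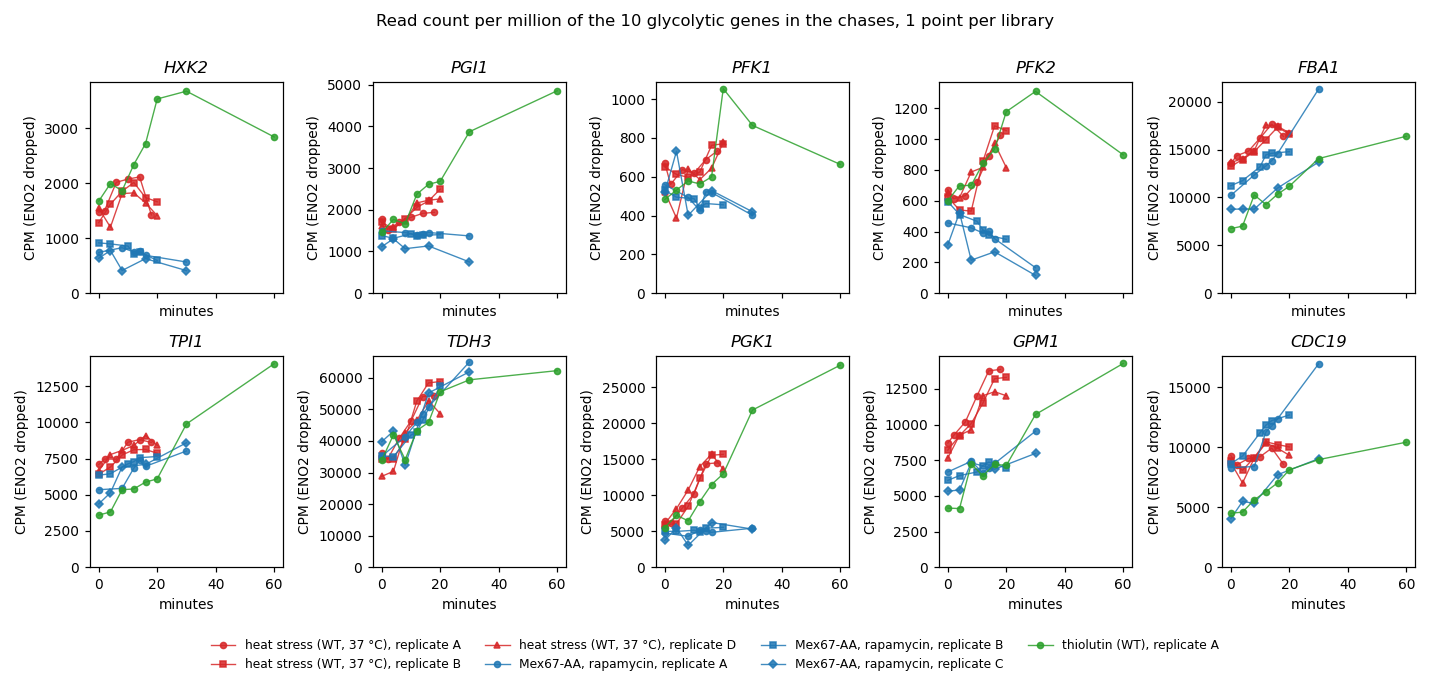
Level of each of the 10 mRNAs in CPM without ENO2 (linear axis from 0, its range set for each gene) against time in min in the heat stress, Mex67-AA and thiolutin chases, with 1 point for each library and a line for each replicate. In heat stress PGK1 stands between 10190 and 15705 CPM at 10 to 16 min, against 5896 to 6433 CPM at 0 min, while PFK2 in Mex67-AA cells stands between 116 and 350 CPM at 20 to 30 min, against 314 to 595 CPM at 0 min.

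The Mex67-AA chase asks how mRNA levels and tails change once export of new mRNA into the cytoplasm is blocked. Glycolytic mRNAs took a growing share of the reads: together the members made up 10.8 to 12.9% of reads at 20 to 30 min, against 6.86 to 7.60% at 0 min. The largest gains were those of FBA1, TPI1, TDH3 and CDC19, all of the lower pathway. In edgeR's quasi-likelihood test with TMM scaling and the replicate as a block (Benjamini-Hochberg adjusted p under 0.05), 10 of 10 members were higher at 10 to 16 min than at 0 min, against 21.6% of 4261 transcripts called higher and 31.0% called lower. Their median change was 1.04 on the log2 scale, against -0.25 for all transcripts tested.

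This count depends on the scaling, because the composition of the libraries changed during the chase. In a joint fit with heat stress, its TMM factors were 0.54 to 0.80 at 10 to 16 min, against 1.11 to 1.24 at 0 min. The factors of the fit of this chase alone are not given. With library totals in place of TMM, 4 of 10 members were called higher (FBA1, TPI1, TDH3 and CDC19). Of all 4261 transcripts, 130 were then called higher and 2909 lower. The values of HXK2 (-0.14), PGI1 (-0.042), PFK1 (-0.15) and PFK2 (-0.36) turned negative without passing the test. Relative to the median of all transcripts, which was -1.09 under that scaling, the members stood 1.29 higher under both. For these 4 genes the CPM ranges overlapped: at 10 to 16 min HXK2 had 628 to 857 CPM, against 635 to 916 CPM at 0 min, PGI1 1132 to 1455 CPM, against 1116 to 1496 CPM, PFK1 427 to 529 CPM, against 519 to 559 CPM, and PFK2 269 to 467 CPM, against 314 to 595 CPM. Their calls as higher are thus relative to other transcripts. The calls of the other members, FBA1, TPI1, TDH3 and CDC19 among them, also rest on shares of the reads. The study reports that less pA-tailed RNA was recovered from the cells as this chase went on. A larger share of a smaller pool need not be a larger amount, and the amount of each mRNA was not tested.

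CDC19 changed most. It had 7696 to 12356 CPM, with a median of 11758, at 10 to 16 min (n = 7), against 4048, 8292 and 8627 CPM at 0 min, with replicate C the lowest by a wide margin. Its log2 change was 1.43 ± 0.18 (SE, adjusted p = 5.01e-07). TPI1 had 6840 to 7566 CPM (median 7140), above all 3 libraries at 0 min with 4373, 5354 and 6351 CPM (log2 change 1.25 ± 0.19, adjusted p = 3.57e-06). TDH3 had 41887 to 55204 CPM (median 46600), likewise above 35188, 35307 and 39769 CPM at 0 min (log2 change 1.22 ± 0.18, adjusted p = 2.25e-06). For both genes the groups did not overlap.

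FBA1 had 10986 to 14604 CPM at 10 to 16 min, against 8762, 10206 and 11228 CPM at 0 min, so that the groups overlapped slightly, and its log2 change was 1.19 ± 0.18 (adjusted p = 3.48e-06). PGK1 with 1.05 ± 0.17 and GPM1 with 1.04 ± 0.19 followed, and in CPM both overlapped with 0 min: PGK1 had 4841 to 6204 CPM, against 3725 to 4983 CPM, and GPM1 6613 to 7366 CPM, against 5334 to 6676 CPM. The enzymes of the first steps had smaller log2 changes, 0.81 ± 0.16 for PGI1, 0.70 ± 0.16 for HXK2 and 0.70 ± 0.16 for PFK1 and adjusted p of 9.68e-05 to 0.000533. PFK2 was last with 0.47 ± 0.18 (adjusted p = 0.0273), and this call was lost without any 1 of the 3 replicates (adjusted p of 0.0506 to 0.408) and with DESeq2 (adjusted p = 0.0602). Without the replicate block the adjusted p of PFK2 was 0.0815. The call of HXK2 was lost without replicate A (adjusted p = 0.0693), at 20 to 30 min as well (adjusted p = 0.0856).

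By 20 to 30 min the members had moved apart. CDC19 had 9031, 12671 and 16923 CPM, against 4048 to 8627 CPM at 0 min (log2 change 2.169 ± 0.209, adjusted p = 3.57e-10), and TDH3 57461, 61931 and 65059 CPM, against 35188 to 39769 CPM (2.00 ± 0.20, adjusted p = 9.27e-10). FBA1 changed by 1.97 ± 0.21, TPI1 by 1.85 ± 0.22, GPM1 by 1.69 ± 0.21 and PGK1 by 1.53 ± 0.20. PFK2, in contrast, had 116, 166 and 350 CPM, against 314, 456 and 595 CPM, and its log2 change of 0.09 ± 0.21 did not pass the test (adjusted p = 0.741). Thus 9 of 10 members were called higher at 20 to 30 min, against 22.0% of transcripts called higher and 31.1% called lower. With library totals PFK2 was lower at this time, by a log2 change of -1.16 (adjusted p = 0.000116), as was HXK2 (-0.55, adjusted p = 0.00328). Under that scaling 5 of 10 members were called higher and 2 lower, against 207 higher and 3164 lower of 4261 transcripts. The subunits of phosphofructokinase thus had different values in the same libraries: PFK1 stood at 402, 420 and 456 CPM at 20 to 30 min, against 519, 530 and 559 CPM at 0 min.

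**Figure D2:**
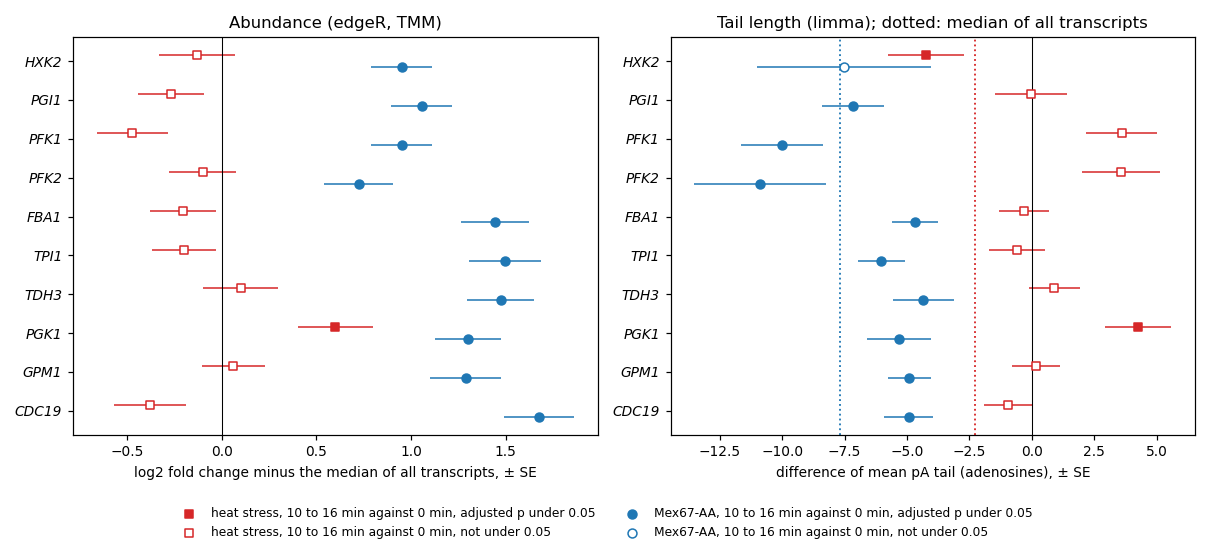
Change of each member at 10 to 16 min against 0 min with its SE, in heat stress (squares) and Mex67-AA cells (circles), filled where the adjusted p was under 0.05. The left panel gives the log2 change with TMM scaling minus the median of all transcripts in that chase, and the right panel the change of the mean pA-tail in A with that median as a dotted line. All 10 members in Mex67-AA cells lie above 0 in the left panel, and in heat stress PGK1 alone is filled there.

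Over the pairs of time points of a replicate from 0 to 16 min, the CPM of PFK2 fell in 23 of 26 pairs, with a mean slope of -0.40 ± 0.14 in log2 CPM per 10 min (SD over 3 replicates). HXK2 fell in 19 pairs (-0.25 ± 0.079) and PFK1 in 18 (-0.09 ± 0.18), PGI1 in 13, and PGK1 in 10, whereas CDC19, FBA1 and TPI1 fell in 1 pair each. A half-life computed from falling pairs alone, which leaves out every pair that rises, ranged over the replicates between 8.2 and 33.0 min for PFK2 and between 12.0 and 30.1 min for HXK2. For the members of the lower pathway such a half-life rests on 1 to 10 pairs and is not given.

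In the same Mex67-AA libraries the tails of nearly all members shortened. By limma on the mean tail, fitted for the 1036 transcripts that kept 10 or more reads throughout, 9 of 10 members were shorter at 10 to 16 min than at 0 min, against 87.2% of transcripts called shorter and 0.0965% called longer, so that the members did as most mRNAs did. Their median change was -5.68 A, against -7.69 A for all transcripts. The largest values were those of the long-tailed phosphofructokinase mRNAs: PFK2 had 24.0 to 29.8 A (median 27.4), against 32.3, 37.98 and 42.7 A at 0 min (change -10.9 ± 2.63 A, adjusted p = 0.00136), and PFK1 had 21.0 to 27.0 A (median 26.1), against 31.5, 34.6 and 38.8 A (-10.02 ± 1.65 A, adjusted p = 0.000103). In neither case did the groups overlap. The smallest were TDH3 with -4.34 ± 1.22 A and FBA1 with -4.68 ± 0.911 A. HXK2 had 28.6 to 36.4 A, against 36.6, 40.0 and 41.5 A, and missed the threshold with -7.53 ± 3.49 A (adjusted p = 0.0536). With the median tail in place of the mean, 10 of 10 members were called shorter, as were 920 of 1035 transcripts. Without replicate A the call of TDH3 was lost (adjusted p = 0.0602).

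At 20 to 30 min 9 of 10 members were again shorter, against 74.7% of transcripts called shorter and 4.63% called longer. The study left the last time points of this chase out of its deadenylation modelling. It proposes that a few new nuclear mRNAs with very long tails weigh on tail lengths there. Their part in the values of the members was not tested. TPI1 had 17.0, 19.2 and 22.0 A, against 27.2, 28.4 and 30.8 A at 0 min, and CDC19 20.1, 21.8 and 23.6 A, against 27.5, 29.0 and 30.3 A. Their changes were -9.38 ± 1.11 A (adjusted p = 6.47e-06) and -7.10 ± 1.14 A (adjusted p = 4.90e-05). The 95th percentile of CDC19 was 35 to 40 A, against 55 to 58 A at 0 min. The call of PFK2 was lost without replicate B (adjusted p = 0.0652).

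HXK2 stood apart from the other members. At 30 min its mean tail was 53.4 A in replicate A and 51.2 A in replicate C, and 33.0 A at 20 min in replicate B, against 36.6 to 41.5 A at 0 min. The reads behind these means numbered 671, 281 and 869. The distribution had spread at both ends: at 30 min the median was 54 and 55 A and the 5th percentile 11 and 10 A, while the 95th percentile had reached 112 and 97 A, against 69 to 79.2 A at 0 min. At 20 min in replicate B the median was only 22 A, but the 95th percentile was also 97 A. Over the window the change in the mean, 6.46 ± 4.08 A, did not pass the test (adjusted p = 0.156); without replicate B, which leaves only the 30 min libraries, it was 11.5 A with an adjusted p of 0.0397.

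Long tails beside a short median were also seen in other members. At 30 min the median tails of PFK1 and PFK2 were 17 to 19 A, yet their 95th percentiles were 75.2 to 91.2 A, against 60.8 to 74 A at 0 min. PGI1 had a median of 15 and 17 A and a 95th percentile of 67.7 and 87.4 A at 30 min. PGK1 had medians of 18 and 17 A beside 95th percentiles of 71.9 and 75 A at 30 min, against 95th percentiles of 54 to 61 A at 0 min. FBA1, TPI1, GPM1 and CDC19 were the opposite, with 95th percentiles of 29 to 36 A at 30 min, against 52 to 60 A at 0 min. These percentiles are descriptions with no test.

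**Figure D3:**
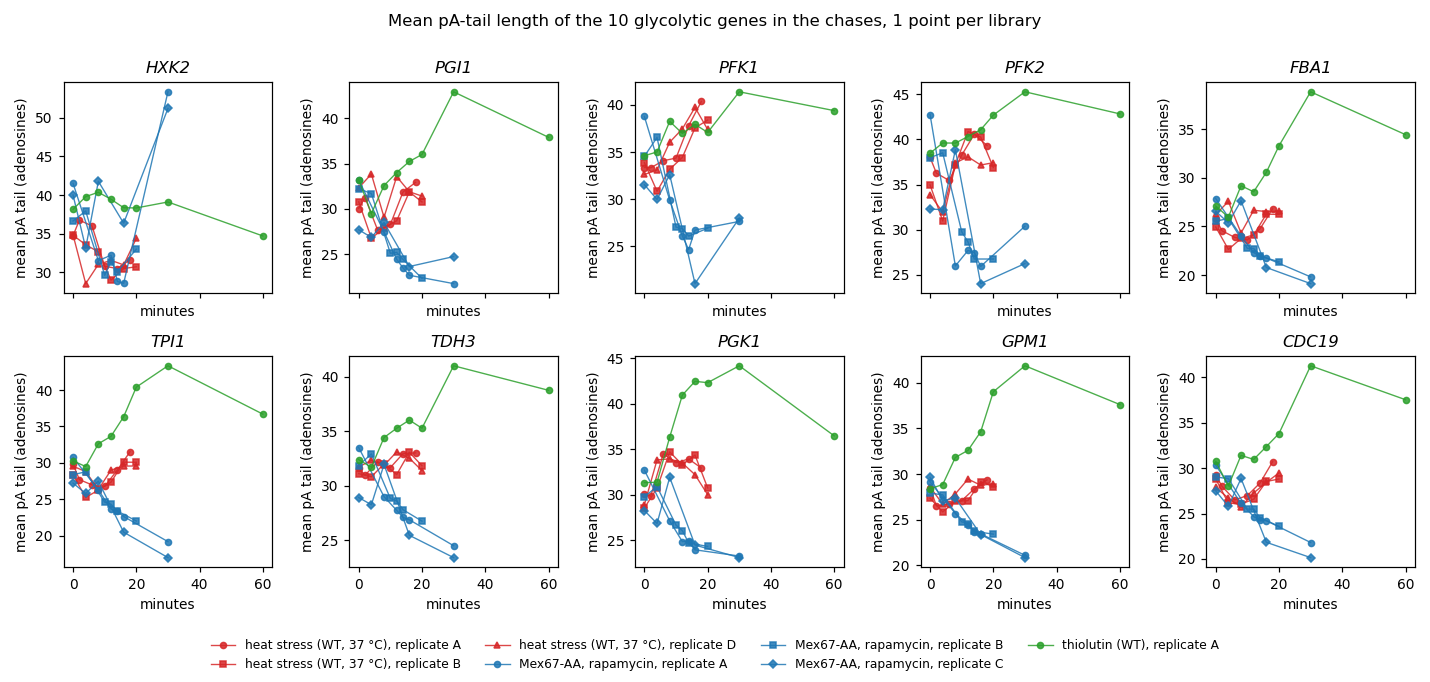
Mean pA-tail in A of each of the 10 mRNAs (linear axis that does not start at 0, its range set for each gene) against time in min in the 3 chases, with 1 point for each library and a line for each replicate. HXK2 in Mex67-AA cells stands at 53.4 and 51.2 A at 30 min, above its 36.6 to 41.5 A at 0 min, whereas TPI1 falls to between 17.0 and 22.0 A at 20 to 30 min.

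The heat stress chase asks the same of wild-type cells at 37 °C, in which export is not blocked by a tag and new mRNAs of stress genes appear. All 6 chaperone genes listed as heat shock markers, HSP104, SSA4, HSP42, BTN2, HSP30 and HSP78, were higher at 10 to 16 min, with a median log2 change of 6.04. Among the members, PGK1 alone passed the test with TMM scaling. It had 10190 to 15705 CPM (median 14166) at 10 to 16 min (n = 6), against 5896, 6010 and 6433 CPM at 0 min, without overlap, and its log2 change was 0.74 ± 0.20 (edgeR, adjusted p = 0.00576). With 1 of 10 members called, the share was below that of all 4136 transcripts, of which 22.1% were called higher and 21.6% lower. DESeq2 called GPM1 higher as well (adjusted p = 0.000234) and PFK1 lower (adjusted p = 0.00502).

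PGK1 was higher in all 3 replicates. At 4 min, a time that replicate A lacks, it had 8128 CPM in D, whose library was the shallowest of the chase, and 6042 CPM in B. At 12 to 16 min it had 13977 and 15705 CPM in D, 14354 CPM in A, and 12314 and 15546 CPM in B. At 18 to 20 min it had 13574, 14480 and 15664 CPM, a log2 change of 0.66 ± 0.22 (adjusted p = 0.0342), again the only member called, against 13.2% of transcripts called higher and 14.1% called lower. The call at 10 to 16 min was lost without replicate B (adjusted p = 0.0878), and the later call without any 1 replicate (adjusted p of 0.0676 to 0.265).

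No other member passed the test with TMM scaling, though several stood higher in CPM. In the joint fit, heat stress TMM factors were 1.33 to 1.67 at 10 to 16 min, against 1.02 to 1.18 at 0 min. The factors of the heat stress fit alone are not given. GPM1 had 11499 to 13767 CPM, against 7661 to 8704 CPM at 0 min (log2 change 0.20 ± 0.17, adjusted p = 0.362), and likewise without overlap TDH3 46318 to 58411 CPM, against 28795 to 36240 CPM (0.24 ± 0.20, adjusted p = 0.355). CDC19, the strongest in the Mex67-AA chase, had 9199 to 10435 CPM, against 8707 to 9293 CPM (-0.25 ± 0.19, adjusted p = 0.314). With library totals 7 of 10 members were called higher at 10 to 16 min, all but PGI1, PFK1 and CDC19. Of all 4136 transcripts, 1677 were called higher and 631 lower under that scaling. The values of FBA1 (0.34) and TPI1 (0.35) then changed sign. Under both scalings the members' median stayed below that of all transcripts, at -0.03 against 0.14 with TMM and at 0.38 against 0.58 with library totals. The members' share of reads was 10.8 to 12.9% at 10 to 16 min, against 7.58 to 8.59% at 0 min.

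Heat changed the tails of the members little, in a set of only 357 transcripts that had 10 reads in every library, since the 4 min library of replicate D holds 25838 reads. PGK1 had 32.2 to 34.4 A (median 33.5) at 10 to 16 min, against 28.6, 28.9 and 30.1 A at 0 min, without overlap (change 4.27 ± 1.32 A, limma, adjusted p = 0.019), and HXK2 had 29.0 to 31.6 A, against 34.8 A in all 3 libraries (-4.25 ± 1.53 A, adjusted p = 0.0368). So 1 of 10 members was called longer and 1 shorter, against 5.04% of transcripts called longer and 34.7% called shorter. This background depends on that library: without it 864 transcripts were tested, of which 63 were called longer and 120 shorter, and the median of all was 0.62 A in place of -2.29 A, while that of the members was 0.078 A in both. The study left the 18 to 20 min libraries out of its deadenylation modelling, since tails and levels of mRNAs silenced by heat had recovered there. Its methods also describe many new mRNAs with long tails beyond 10 min of heat stress, as transcription resumes. That time takes in most of the 10 to 16 min window, used here and in the difference from the Mex67-AA chase. The part of such new mRNAs in the tails of the members was not tested. At 18 to 20 min only PFK1 was called, with 37.4, 38.4 and 40.4 A, against 32.6, 33.4 and 33.9 A (5.43 ± 1.64 A, adjusted p = 0.0333), against 15.7% of transcripts called longer and 0.0% called shorter. Each of these 3 tail calls was lost without any 1 replicate, and that of PFK1 also without the shallow 4 min library of D (adjusted p = 0.073).

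The mean tail of PGK1 stood higher early, at times that were not tested. In replicate D the mean was 28.9 A at 0 min, 33.8 A at 4 min and 33.95 A at 8 min, and in replicate B 28.6 A at 0 min, 30.7 A at 4 min and 34.7 A at 8 min, before the level reached its highest values. By 20 min the mean was 30.0 A in D and 30.8 A in B.

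The change in heat stress minus the change in the Mex67-AA chase was fitted over the libraries of both. For abundance, 8 of 10 members were lower in this difference, against 28.1% of 4721 transcripts called higher and 22.2% called lower. CDC19 differed most (-1.76 ± 0.28, adjusted p = 3.66e-06), followed by TPI1 (-1.40 ± 0.28) and FBA1 (-1.35 ± 0.27), while PFK2 (-0.54 ± 0.28, adjusted p = 0.0997) and PGK1 (-0.40 ± 0.27, adjusted p = 0.211) did not pass the test. The call of HXK2 (-0.78 ± 0.26) was lost with DESeq2 (adjusted p = 0.183) and without Mex67-AA replicate A (adjusted p = 0.166). The direction hangs on the scaling. With library totals PGK1 (0.95), PFK2 (0.81), HXK2 (0.54), GPM1 (0.42), PGI1 (0.32), TDH3 (0.27) and PFK1 (0.23) turned positive, and CDC19 stayed negative at -0.42, past the threshold, as did FBA1 (-0.01) and TPI1 (-0.06) without passing the test. Relative to the median of all transcripts the members stood 1.43 lower with TMM and 1.48 lower with library totals.

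For tails, 9 of 10 members were longer in heat stress relative to the Mex67-AA chase, against 39.1% of 350 transcripts called longer and 0.286% called shorter. Their median was 5.34 A, against 3.52 A for all. Without the 4 min library of D, which lets 744 transcripts in, the members' median was again 5.34 A with 9 called longer, but that of all transcripts was 7.84 A, with 423 called longer, so that the members' median then lay below it, with 3 of 10 above. PFK2 (14.5 ± 3.09 A, adjusted p = 0.000496) and PFK1 (13.6 ± 2.12 A, adjusted p = 3.94e-05) led, then PGK1 (9.60 ± 1.76 A), and HXK2 (3.29 ± 3.65 A, adjusted p = 0.571) was not called. With the median tail the calls of FBA1, TPI1, GPM1 and CDC19 were lost (adjusted p of 0.0631 to 0.603), and without Mex67-AA replicate A those of PGI1, FBA1 and CDC19 (adjusted p of 0.0505 to 0.0593). Strain and treatment differ together between the chases and cannot be told apart.

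In the thiolutin chase, in which export is not blocked by a tag, the members also had higher levels at later times. In the single replicate, which has no replicate error and no test, the members made up 6.26% of reads at 0 min, 13.5% at 30 min and 15.5% at 60 min. PGK1 had 5502 CPM at 0 min, 21822 CPM at 30 min and 28046 CPM at 60 min, TPI1 3597, 9892 and 14052 CPM, and HXK2 1674, 3673 and 2840 CPM. All 10 members were higher at 30 min than at 0 min, against 56.1% of 814 transcripts with at least 50 reads in both libraries, and the members' median ratio was 2.19, against 1.12 for all. At 60 min the median ratio was 2.37, against 1.47, with all 10 higher against 69.4%. At 4 min 9 of 10 members were higher, against 48.7%, and all 10 were at 8 min (against 55.8%), 12 min (43.8%), 16 min (50.2%) and 20 min (47.5%).

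The tails of the members were longer in the later thiolutin libraries. All 10 had a longer mean tail at 30 min than at 0 min, against 68.6% of transcripts, with a median difference of 10.1 A, against 3.67 A for all. TPI1 had 30.3 A at 0 min, 43.3 A at 30 min and 36.7 A at 60 min, and GPM1 28.4, 41.9 and 37.6 A. HXK2 was again the exception with 38.1, 39.1 and 34.7 A. At 60 min 9 of 10 were longer than at 0 min, against 68.7%. Earlier, 5 of 10 were longer at 4 min (against 27.5% of transcripts), 9 at 8 min (51.6%), and all 10 at 12 min (34.6%), 16 min (33.6%) and 20 min (40.6%). The 8 min library stands apart, since ENO2 took 4.34% of its reads, against 24.5 to 39.7% in the other 7.

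**Figure D4:**
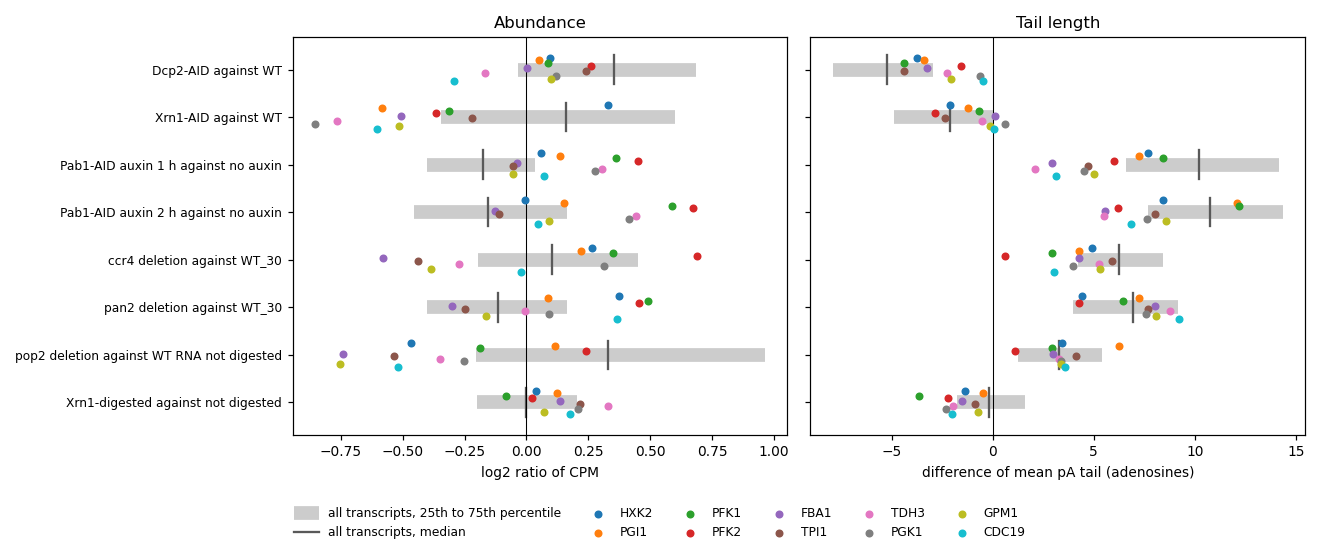
Log2 ratio of CPM (left) and difference of mean pA-tail in A for the 10 members in the pooled or single libraries of the degron, deletion and digestion experiments, each against the column named on the left, with a bar from the 25th to the 75th percentile of all transcripts and a line at their median; there is no replicate error. All 10 points of Dcp2-AID cells in the left panel lie below the median line.

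In cells depleted of decay factors, for which the pooled columns carry no replicate error, the members stood below the median of all mRNAs in their ratios to wild type, with the exception of HXK2 in Xrn1-AID cells. In Dcp2-AID cells 8 of 10 members had a higher CPM than in wild type, against 73.0% of 3077 transcripts, but their median ratio was 1.07 and all 10 lay below the median ratio of 1.28. PFK2 had the highest ratio (1.197, 95% counting interval 1.09 to 1.31) and CDC19 the lowest (0.816, 0.792 to 0.840). In Xrn1-AID cells only HXK2 was higher (1.26, 1.15 to 1.37), 1 of 10 against 59.2% of 2759 transcripts, and PGK1 (0.553) and TDH3 (0.588) were lowest. Counting intervals cover the error of counting reads only.

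Tails were shorter in Dcp2-AID cells for all 10 members, as 0 of 10 were longer, against 6.5% of transcripts. TPI1 had 27.4 A, against 31.8 A in wild type, and CDC19 30.8 A, against 31.3 A. The members' median difference was -2.77 A, against -5.25 A for all. In Xrn1-AID cells 3 of 10 were longer, against 25.4%, and the median difference was -0.61 A, against -2.13 A.

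In Pab1-AID cells all members had longer tails, as nearly all mRNAs did. After 1 and 2 h of auxin 10 of 10 were longer at both times, against 98.7% of transcripts at both, and the members' median difference was 4.87 A after 1 h and 7.82 A after 2 h, against 10.2 and 10.8 A for all. PFK1 had 41.9 A after 1 h and 45.7 A after 2 h, against 33.5 A without auxin, and its CPM ratios were 1.29 and 1.501. In level, 7 of 10 members were higher at each time, against 28.0% of transcripts after 1 h and 36.4% after 2 h. PFK2 had the highest CPM ratios, 1.37 (1.24 to 1.51) after 1 h and 1.59 (1.44 to 1.77) after 2 h.

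Without CCR4, the main catalytic subunit of Ccr4-NOT, all 10 members had longer tails than in WT_30, against 96.8% of transcripts, with a median difference of 4.28 A, against 6.23 A for all; for PFK2 the difference was 0.625 A. In the samples titled as without PAN2 all 10 were longer too, against 92.1%, and here the median difference of 7.65 A was above that of all transcripts, 6.93 A. Among the members the differences in the PAN2 deletion were largest for CDC19 (42.1 A, against 32.9 A) and TDH3 (42.6 A, against 33.8 A). The members thus had smaller differences than the median of all in the CCR4 deletion in 10 of 10 cases, and larger ones in the PAN2 deletion in 7 of 10; both deletions share the WT_30 column as their control.

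In level the members were divided. Without CCR4, 5 of 10 were higher, against 58.9% of transcripts: PFK2 (1.61), PFK1 (1.27), PGK1 (1.24), HXK2 (1.201) and PGI1 (1.17), while FBA1 (0.669), TPI1 (0.737), GPM1 (0.766) and TDH3 (0.828) were lower. Without PAN2, 6 of 10 were higher, against 39.1%, led by PFK1 (1.40), PFK2 (1.37) and HXK2 (1.30). According to the strain list, strains without CCR4 or PAN2 and a wild type matched to them carry a PGK1 reporter at the CUP1 locus. Reads of the reporter can be counted for PGK1, and its part in the values of PGK1 was not tested. The titles do not say whether WT_30 is that wild type.

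The single library without POP2, another subunit of Ccr4-NOT, was set against the undigested wild-type RNA of the same table, which was prepared as the control of the digestion and not of the deletion. In it 10 of 10 members had longer tails, against 84.5% of 1042 transcripts, with a median difference of 3.38 A, against 3.29 A. Only PFK2 (1.18) and PGI1 (1.08) had a higher CPM, 2 of 10 against 65.4%. Digestion of wild-type RNA with Xrn1 in vitro, which removes mRNAs without a cap, left 9 of 10 members higher in CPM, against 49.5% of 1799 transcripts, with TDH3 at 1.26 (1.24 to 1.28) and PFK1 at 0.943 (0.850 to 1.05). In the digested RNA 0 of 10 members had a longer tail, against 46.4%, and their median difference was -1.73 A, against -0.20 A for all.

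Second genes of the same steps and other paralogs of the members were listed together, and whether each encodes an active isozyme was not examined. The list also holds PFK27 and FBP26, which make and break down fructose 2,6-bisphosphate, a regulator of phosphofructokinase, and are no isozymes of a step. Of the 9 listed genes tested in heat stress, 6 were called higher at 10 to 16 min (HXK1, GLK1, TDH1, GPM2, PYK2 and FBP26) and 0 lower, against 22.1% of transcripts called higher and 21.6% called lower. Their median log2 change was 4.18, against 0.14 for all. GPM2 had 0 reads in the 3 libraries at 0 min, and 15.4 to 40.8 CPM at 10 to 16 min. HXK1, the hexokinase repressed by glucose, had 1012 to 1723 CPM, against 11.6, 12.4 and 19.2 CPM at 0 min, where it had 17 reads in all (log2 change 6.21 ± 0.91, adjusted p = 5.96e-05). The median of HXK1 at these times was 1597 CPM, and that of HXK2 in the same libraries 1918 CPM, with a range of 1643 to 2114 CPM. GLK1, glucokinase, had 2387 to 4066 CPM, against 69.8 to 83.3 CPM (4.80 ± 0.60, adjusted p = 2.33e-05). PYK2, the second pyruvate kinase, had 68.7 to 177 CPM, against 3.54 to 11.6 CPM (4.41 ± 0.82, adjusted p = 0.000335).

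The paralogs of TDH3 split in the same libraries. TDH1 had 153 to 378 CPM at 10 to 16 min of heat stress, against 0 to 12.8 CPM at 0 min (log2 change 4.18 ± 0.65, adjusted p = 9.22e-05), whereas TDH2 had 7532 to 11289 CPM, against 6236 to 7393 CPM (-0.05 ± 0.20, adjusted p = 0.859). In the Mex67-AA chase 3 of the 7 listed genes tested were called higher at 10 to 16 min, TDH1 (1.61 ± 0.40), TDH2 (1.05 ± 0.17) and GLK1 (0.75 ± 0.23), against 21.6% of transcripts, and 1 lower, the regulatory enzyme gene FBP26 (-1.51 ± 0.46), against 31.0%. These calls are relative to other transcripts. GLK1 had 35.9 to 67.9 CPM, against 27.8 to 68.8 CPM at 0 min, and TDH1 7.74 to 18.9 CPM, against 6.87 to 8.55 CPM, both with overlap. TDH2 had 5141 to 5621 CPM, against 4317 to 4684 CPM, without overlap. TDH2, like TDH3, had shorter tails at 10 to 16 min, by a change of -7.57 ± 1.31 A (adjusted p = 0.00014).

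Pathways that branch from glycolysis were followed in the same libraries. Of 7 genes of the pentose phosphate pathway tested, 6 were called higher with TMM scaling in Mex67-AA cells at 10 to 16 min and 0 lower. Of all transcripts 21.6% were called higher and 31.0% lower. The median log2 change of the list was 0.86, against -0.25 for all. These calls are relative to other transcripts, and calls with library totals are not given for this list. In CPM the ranges overlapped: GND1 had 802 to 910 CPM, against 797 to 1000 CPM at 0 min. TKL1 had 918 to 1089 CPM, against 908 to 1111 CPM, and ZWF1 281 to 400 CPM, against 231 to 341 CPM. All 7 genes tested were called shorter in tail, close to the 87.2% of transcripts so called. In heat stress ZWF1, its first enzyme, was higher with 524 to 1257 CPM, against 209 to 373 CPM at 0 min, and 3 of 7 were called lower, against 21.6% of transcripts, among them RKI1 with 7.48 to 33.8 CPM, against 175 to 195 CPM. Of 4 genes of fermentation tested, 2 were called higher and 1 lower in Mex67-AA cells at 10 to 16 min, against 21.6% and 31.0% of transcripts. In heat stress 1 was called higher and 2 lower at 10 to 16 min, against 22.1% and 21.6% of transcripts. PDC1, pyruvate decarboxylase, had 18193 to 24233 CPM in Mex67-AA cells at 10 to 16 min, against 14006 to 16652 CPM at 0 min, and it was called lower in heat, with 11121 to 15549 CPM, against 12450 to 16331 CPM. Of 4 hexose carriers tested, 1 was called higher and 1 lower in Mex67-AA cells at 10 to 16 min, against 21.6% and 31.0% of transcripts. HXT1 was lower with 18.8 to 37.8 CPM, against 200 to 291 CPM at 0 min, HXT4 was called higher relative to other transcripts (log2 change 0.67 ± 0.23) with 24.8 to 71.3 CPM, against 23.5 to 66.99 CPM, and HXT2 (-0.03) and HXT3 (0.04) did not pass the test. Of the regulators of glycolytic genes, 2 of 5 tested were called lower in Mex67-AA cells, near the 31.0% of all transcripts, with GCR2 at 0 to 4.43 CPM, against 18.8 to 28.8 CPM.

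Across the 35 libraries of the Mex67-AA and heat stress chases, each centred on its replicate's mean, the transcripts whose log2 CPM was most like the mean of the members were those of FMP52 (Pearson's r = 0.943), SED1 (0.94), PEP4 (0.929), YOP1 (0.916) and a line that joins YNL055C with a tRNA gene (0.928), among 1025 candidates above 100 CPM. Of the members themselves PGK1 was most like their mean (0.969), and HXK2 least (0.374), followed by PFK2 (0.447). Each member is itself part of that mean, so these values cannot be set beside those of the other transcripts. These correlations share the depth and the strain of the libraries and are given as a description.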

How the data were processed

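The deposited tables give, per transcript and library, a read count and the mean, median and percentiles of the pA-tail in adenosines. The authors basecalled with Guppy, aligned with minimap2 to a custom transcriptome (build sacCer3 per the processing notes), filtered with SAMtools 1.9 and kept reads that passed the Nanopolish tail estimate; RNA002 chemistry under-detects short tails. Counts were used as deposited, after lines of the same systematic name were merged (4480 lines) and ENO2 was dropped. Of the columns in 15 tables, 275 were used and 1045 were not.

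Abundance was tested with edgeR 4.0.16 (quasi-likelihood, TMM, 10 or more reads in 3 or more libraries) and mean tail with limma 3.58.1 (trend, 10 or more reads in every library), in R 4.3.3, with Benjamini-Hochberg adjustment over all transcripts, a threshold of 0.05 and the replicate letter as a block. Libraries were grouped as 0 min, 2 to 8 min, 10 to 16 min and later. In the Mex67-AA chase libraries of 1 letter deviated together between 0 min and 10 to 16 min (correlations of 0.506, 0.568 and 0.66), which was taken as pairing, although A and B also deviated with each other (0.528 and 0.45) and only C stood apart from both. Pooled columns and thiolutin were compared without a test, over transcripts with 50 or more reads in both columns, with 95% counting intervals that cover counting error only. Totals without ENO2 ran from 188519 to 2184459 reads (Mex67-AA), 25838 to 668505 (heat stress) and 320726 to 777753 (thiolutin).

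Alternatives were DESeq2 1.42.0, library totals, no count filter, ENO2 kept, no block, the median tail, 50 reads, read weights and each replicate left out; ENO1 dropped and the doubted libraries left out were chosen after seeing the data. Named genes are the 10 members and members of listed pathways. The members and lists were chosen with earlier results of these data known. Of the tables, 12 were used; those left out hold a temperature other than that of the labels, libraries already given in another table, and a thiolutin replicate pooled over all times.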

Additional observations from a re-analysis of the deposited data

Results flagged for a closer look

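The change in heat stress differed from the change in the Mex67-AA chase, by a test of the difference itself at 10 to 16 min, for 8 members in level and 9 in tail length. In level all 8 were lower, against 22.2% of 4721 transcripts called lower and 28.1% called higher. In tail all 9 were longer, against 39.1% of 350 transcripts called longer and 0.286% called shorter. In level (edgeR with TMM, log2 change in heat stress minus log2 change in Mex67-AA cells) the differences were -0.78 for HXK2, -1.03 for PGI1, -1.14 for PFK1, -1.35 for FBA1, -1.40 for TPI1, -1.07 for TDH3, -0.93 for GPM1 and -1.76 for CDC19. With library totals HXK2, PGI1, PFK1, TDH3 and GPM1 changed sign, and FBA1 and TPI1 no longer passed the test.

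In mean tail (limma, A) the differences were 7.13 for PGI1, 13.6 for PFK1, 14.5 for PFK2, 4.36 for FBA1, 5.43 for TPI1, 5.25 for TDH3, 9.60 for PGK1, 5.09 for GPM1 and 3.99 for CDC19, beside a median of 3.52 A for all 350 transcripts. Without the 4 min heat stress library of D the median of all 744 transcripts was 7.84 A, and 3 of 10 members lay above it. Strain and treatment differ together between the chases and cannot be told apart.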

How the results depend on the processing

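With library totals in place of TMM, 3582 transcripts and 5 members were called in the difference between heat stress and Mex67-AA at 10 to 16 min, 7 members in heat stress at 10 to 16 min, 2029 transcripts and 7 members in heat stress at 18 to 20 min, and 4 members in Mex67-AA at 10 to 16 min. The split of all calls moved to 3162 higher and 420 lower in the difference (1327 and 1050 with TMM), 1677 and 631 (916 and 893) and 1683 and 346 (548 and 583) in the heat stress windows, and 130 and 2909 (921 and 1319) and 207 and 3164 (937 and 1325) in the Mex67-AA windows. The sign changed in the difference for HXK2 (0.54), PGI1 (0.32), PFK1 (0.23), PFK2 (0.81), TDH3 (0.27), PGK1 (0.95) and GPM1 (0.42), in heat stress at 10 to 16 min for FBA1 (0.34) and TPI1 (0.35), and at 18 to 20 min for PGI1 (0.39), PFK2 (0.58), FBA1 (0.31) and TPI1 (0.31). In Mex67-AA it changed at 10 to 16 min for HXK2 (-0.14), PGI1 (-0.042), PFK1 (-0.15) and PFK2 (-0.36), and at 20 to 30 min for HXK2 (-0.55), PGI1 (-0.21), PFK1 (-0.34) and PFK2 (-1.16).

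DESeq2 called 3 members in heat stress at 10 to 16 min (PGK1 and GPM1 higher, PFK1 lower) and 6 at 18 to 20 min (PGK1 higher, HXK2, PFK1, FBA1, TPI1 and CDC19 lower). Of all 4136 transcripts it called 929 higher and 873 lower at 10 to 16 min, and 579 higher and 579 lower at 18 to 20 min. Without the count filter 0 members were called at 18 to 20 min by edgeR, against 1196 of 7147 transcripts. Without the heat stress 4 min library of D, 3 members were called in level at 18 to 20 min, against 1173 of 4136 transcripts. In tail 0 members were called at 18 to 20 min, against 54 of 864 transcripts. In the tail difference 426 of 744 transcripts were called without that library. With 50 reads per library, tail calls numbered 16 in the difference, 30 in heat stress at 18 to 20 min, 385 and 362 in the Mex67-AA windows, as fewer transcripts were tested. Of 6 members tested in heat stress, 1 was called at 10 to 16 min, against 103 of 124 transcripts, and 0 at 18 to 20 min. With the median tail, 5 members were called in the difference, against 113 of 349 transcripts. In heat stress at 18 to 20 min 0 were, against 74 of 356 transcripts. The members' median log2 ratio in thiolutin was 1.25 at 60 min. Other causes were not tested.

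Leaving out 1 replicate gave, in level, 930 to 1703 transcripts (0 to 2 members) in heat stress at 10 to 16 min, 429 to 1078 (0 to 1) at 18 to 20 min, 997 to 2188 (8 to 9) and 1339 to 2077 (8 to 9) in the Mex67-AA windows and 1846 to 2392 (7 to 8) in the difference. In tail it gave 0 to 90 (0) and 0 to 7 (0) in heat stress, 787 to 1137 (8 to 9) and 769 to 947 (9) in Mex67-AA and 86 to 525 (6 to 9) in the difference.

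Without the replicate block, 1901 transcripts and 9 members were called in level in Mex67-AA at 10 to 16 min. In tail all 10 members were called, as were 913 of 1036 transcripts. In heat stress the letters did not pair the libraries (correlations of -0.154, 0.193 and 0.22), and leaving out the block changed no member's call in level there. In tail at 10 to 16 min 3 members in place of 2 were called, and 144 of 357 transcripts in place of 142. Depth limits the heat stress tails, since 357 transcripts had 10 reads in every library.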
